A study of Mus musculus with 16 samples.

Results

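The RNA interference machinery of RAW 264.7 cells, a mouse macrophage-like cell line, was followed through 10 genes out of 52636 gene names in the deposited tables. They were chosen by name for their place in the pathway, with earlier results of these data known. The 10 genes are Drosha, Dgcr8, Xpo5, Dicer1, Tarbp2, Ago1, Ago2, Ago3, Tnrc6a and Tnrc6b. The libraries covered 4 groups: Cebpb siRNA with isoproterenol, control siRNA with isoproterenol, Cebpb siRNA without isoproterenol, and control siRNA without isoproterenol. Each group had 4 libraries, 2 replicates in each of 2 experiments. The cells received the siRNA at 25 nM with a lipid reagent for 24 h before the agonist was added. Every group therefore carried an siRNA, and untransfected cells were not analysed here. Isoproterenol is an agonist of beta-adrenergic receptors; its dose and the length of stimulation were not stated (not given in the sources used here). Cebpb encodes C/EBPbeta, a leucine-zipper transcription factor of myeloid cells. The Cebpb siRNA was a single catalogue item of unstated sequence, so that effects of that 1 reagent and of the loss of Cebpb cannot be told apart, and RAW 264.7 is a single transformed line.

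RNA interference and the microRNA pathway use one set of proteins. Drosha and its RNA-binding partner DGCR8, together the Microprocessor, cut hairpins out of primary microRNA transcripts in the nucleus. Exportin-5 carries the hairpins to the cytoplasm, and Dicer, helped by the RNA-binding protein TRBP, trims them to short duplexes. An Argonaute protein keeps a single strand of the duplex and is guided by it to matching messenger RNAs. A transfected siRNA enters at this last step. GW182 proteins, the products of the Tnrc6 genes, bind Argonaute and bring in the CCR4-NOT complex, which removes poly(A) tails. In macrophages the pathway produces microRNAs that tune inflammatory responses.

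The values were RPM (reads of a gene scaled to a fixed library total) from a 3' tag assay that counts reads near the poly(A) tail. Total reads per library ranged from 9.42 to 25.17 M, and 1 RPM, the floor at or below which the tables list 0, was worth 9.4 to 25.2 reads. Cebpb itself averaged 26.5 ± 2.05 RPM with Cebpb siRNA and 92.1 ± 10.4 RPM with control siRNA in stimulated cells, and 22.9 ± 8.83 RPM with Cebpb siRNA against 76.1 ± 11.2 RPM with control siRNA in unstimulated cells (SD, n = 4 each). The 4 knockdown libraries lay below the 4 control libraries in both settings, with a log2 fold change of -1.73 ± 0.19 with isoproterenol and -1.73 ± 0.19 without it (± SE, limma, adjusted p = 3.81e-07 and 4.02e-07). Of 10 macrophage markers, 9 were above the floor in at least 1 library of the series and Itgam in none. Every marker of B cells, of T or NK cells, of epithelium and of fibroblasts was listed at 0. Of the neutrophil markers S100a8 alone was seen, at 0 with Cebpb siRNA and 4.44 to 5.84 RPM with control siRNA in stimulated cells, and at 0 to 1.05 against 2.28 to 3.48 RPM in unstimulated ones, and of the dendritic cell markers Zbtb46 alone. The summed macrophage markers ranged over 2626 to 3091 RPM in Cebpb siRNA and 2522 to 2940 RPM in control siRNA libraries with isoproterenol, and over 2553 to 2789 RPM with Cebpb siRNA and 1997 to 2477 RPM with control siRNA without it. The share of reads left unmapped averaged 6.63 ± 0.61% with Cebpb siRNA and 5.4 ± 0.36% with control siRNA in stimulated cells, and 6.96 ± 0.58% with Cebpb siRNA and 5.45 ± 0.34% with control siRNA in unstimulated cells (SD, n = 4 each). The unmapped share, S100a8 and, without isoproterenol, the macrophage sum thus separated the siRNA groups of every comparison described next, and their part in those results was not tested. In bulk RNA, fewer cells of a kind and less RNA per cell cannot be told apart.

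With Cebpb siRNA, the genes for hairpin cutting, export and dicing (Drosha, Dgcr8, Xpo5 and Dicer1) fell in both settings, and 1 GW182 gene, Tnrc6a, rose. With isoproterenol, 6 of the 10 genes passed the threshold (adjusted p under 0.05), 1 higher and 5 lower, against 62.0% of all 11060 genes tested, of which 31.6% were called higher and 30.3% lower. Without isoproterenol, 7 passed, 1 higher and 6 lower, against 61.3% of all genes, 30.9% higher and 30.4% lower. Because most of the tested genes passed, the share of the 10 genes called was near the background and is not a result about them; what follows is which genes moved, which way and how far. Their median log2 fold change was -0.27 with isoproterenol and -0.19 without, beside 0.02 and 0.01 over all genes tested. All 10 passed the filter on low values, 9 of them above the floor in all 16 libraries; Tarbp2 was above the deposited floor in 13 and above the common floor, set after scaling, in 12. The groups of 4 libraries did not overlap, after scaling, for Ago3, Dicer1, Dgcr8, Xpo5 and Tnrc6a with isoproterenol (48.4% of all genes did not) and for Drosha, Dgcr8, Xpo5 and Tnrc6a without it (46.2% of all genes).

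**Figure D1:**
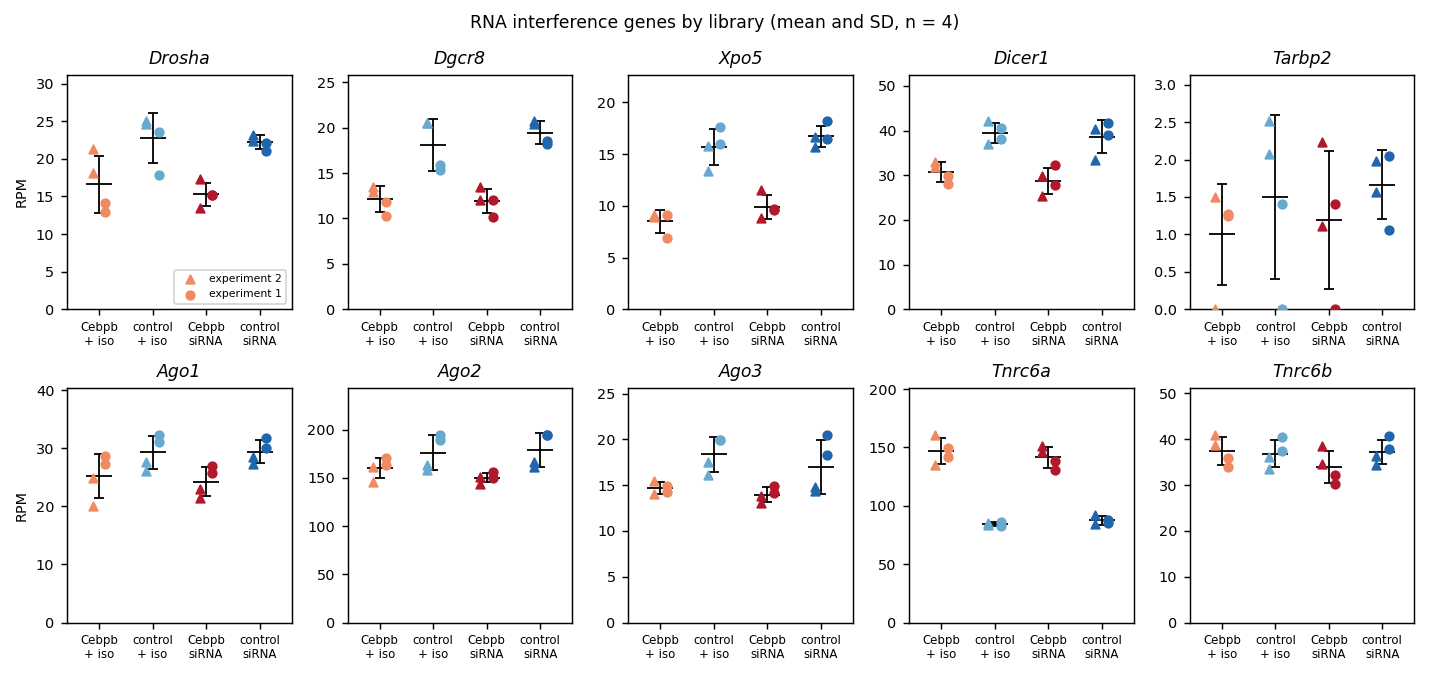
RPM of the 10 genes in each library, 1 panel a gene, with the 4 groups on the horizontal axis (iso, isoproterenol); triangles are libraries of experiment 2, circles of experiment 1, and the bar and whiskers are the mean and SD of 4 libraries. Tnrc6a stands at 131 to 161 RPM in the Cebpb siRNA libraries and at 82.5 to 92.3 RPM in the control siRNA libraries, while Xpo5 and Dgcr8 lie lower in the Cebpb siRNA libraries.

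Both Microprocessor genes fell. For Drosha, the nuclear RNase III enzyme (chr15:12824815-12935291, plus strand, GRCm38), the 4 libraries with Cebpb siRNA and isoproterenol had 14.2, 12.9, 21.3 and 18.1 RPM, against 17.9, 23.6, 25.0 and 24.6 RPM with control siRNA and isoproterenol; these and the later lists give experiment 1 replicates 1 and 2, then experiment 2 replicates 1 and 2. Without isoproterenol Drosha had 15.3, 15.1, 17.3 and 13.5 RPM with Cebpb siRNA, against 21, 22.2, 23.2 and 22.4 RPM with control siRNA. The stimulated groups overlapped, through a high Cebpb siRNA pair in experiment 2 and a low control library in experiment 1, whereas the unstimulated groups were apart. The fitted log2 fold change was -0.40 ± 0.11 with isoproterenol (limma, adjusted p = 0.00289) and -0.46 ± 0.11 without (adjusted p = 0.00101), which is 0.756-fold and 0.728-fold of control. With experiment 2 alone the stimulated comparison gave -0.27 (adjusted p = 0.131) and no longer passed; the unstimulated one gave -0.46 (0.0182).

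Dgcr8, whose product binds the hairpin and positions Drosha (chr16:18253948-18289246, minus strand), had 10.3, 11.8, 13.0 and 13.5 RPM with Cebpb siRNA and isoproterenol, against 15.3, 15.9, 20.5 and 20.6 RPM in the matching controls. In unstimulated cells Dgcr8 had 12.1, 10.1, 13.4 and 12 RPM with Cebpb siRNA, against 18.6, 18.2, 20.7 and 20.4 RPM with control siRNA. Every Cebpb siRNA library lay below every control library in both settings, with 113 to 457 reads behind each value. The log2 fold change was -0.50 ± 0.09 with isoproterenol (limma, adjusted p = 3.7e-05) and -0.63 ± 0.09 without (2.04e-06), or 0.706-fold and 0.646-fold of control. The 3' end of Dgcr8 overlaps Trmt2a on the opposite strand and the predicted gene Gm49776 on its own strand in GENCODE M21. Trmt2a had log2 fold changes of -0.71 ± 0.09 and -0.59 ± 0.09 in the same comparisons. Whether reads were assigned by strand is unknown here. Reads from the overlap could therefore have counted for Dgcr8, for Trmt2a or, as ambiguous reads, for neither.

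The Microprocessor is known to cut its own Dgcr8 transcript, which carries hairpins of microRNA form. RefSeq places 2 of them in Dgcr8 exons on GRCm38: mir-1306 in the coding sequence at chr16:18284239-18284317 (minus strand) and mir-3618 in the 5' UTR. The mir-1306 hairpin and the mature strands of mir-3618 follow because they are the stretches by which this gene is itself a substrate of the machinery; capitals mark the mature strands in the hairpin and the seed (bases 2 to 8) in the mature sequences.
mir-1306 hairpin: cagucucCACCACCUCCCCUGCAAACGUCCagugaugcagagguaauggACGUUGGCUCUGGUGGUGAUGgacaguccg
mmu-miR-3618-5p: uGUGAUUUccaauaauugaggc
mmu-miR-3618-3p: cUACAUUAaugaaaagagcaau

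The promoters of the Microprocessor pair are shown because the products act together and both genes fell, as Xpo5 and Dicer1 also did. Each runs from 250 bases before the RefSeq start to 50 after it, on the gene's own strand. CCAAT (or ATTGG, its reverse complement) is in capitals. Drosha lies at chr15:12824565-12824864 (plus strand) with 3 CCAAT matches, and Dgcr8 at chr16:18289119-18289418 (minus strand) with 4. CCAAT occurs in 37.4% of 32851 promoters of that length, counted with 1 chromosome left out, and 3.37% hold 3 or more. The GC box GGGCGG, also searched, had 0 matches in Drosha and 2 in Dgcr8, and occurs in 35.7% of those promoters. Among the other core genes, Tnrc6b has 4 matches in 1 of its 2 RefSeq promoters and 0 in the other, Tarbp2 has 3, Ago1 and Dicer1 have 1, and Ago3, Xpo5 and Tnrc6a have 0.
Drosha promoter: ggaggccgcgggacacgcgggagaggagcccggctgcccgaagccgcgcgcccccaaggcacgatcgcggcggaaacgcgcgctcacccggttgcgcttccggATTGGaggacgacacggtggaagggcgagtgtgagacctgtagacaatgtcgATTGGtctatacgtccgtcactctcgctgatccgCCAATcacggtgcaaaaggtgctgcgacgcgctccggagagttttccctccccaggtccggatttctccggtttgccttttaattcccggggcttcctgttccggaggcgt
Dgcr8 promoter: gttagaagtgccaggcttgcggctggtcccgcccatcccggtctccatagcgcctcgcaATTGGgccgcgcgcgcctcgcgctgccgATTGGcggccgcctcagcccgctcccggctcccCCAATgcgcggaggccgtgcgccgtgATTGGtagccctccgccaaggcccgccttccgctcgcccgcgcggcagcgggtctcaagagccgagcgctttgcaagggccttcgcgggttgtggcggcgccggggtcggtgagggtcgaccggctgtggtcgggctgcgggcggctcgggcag

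Further words were searched on both strands, with shares given over the same 32851 promoters. They were the C/EBP palindrome TTGCGCAA (0.18%) and TTGCNNAA, the same ends with 2 free bases (10.8%). The cyclic AMP response element TGACGTCA (1.79%) and its shorter form TGACGT (7.51%) were searched too. A single match was found among the RefSeq promoters of the 10 genes, TTGCNNAA at 27 bases after the start of Tnrc6b. Ago2 had no entry. A match, or the lack of one, describes these letters and this window only.

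Export showed the largest decrease of the 10 genes in both siRNA comparisons. Xpo5, which encodes exportin-5 (chr17:46202782-46243598, plus strand), had 6.86, 9.07, 8.93 and 9.10 RPM with Cebpb siRNA and isoproterenol, against 16, 17.6, 15.8 and 13.4 RPM with control siRNA and isoproterenol. Without isoproterenol, Xpo5 had 9.55, 9.74, 11.5 and 8.81 RPM with Cebpb siRNA, against 18.2, 16.4, 15.7 and 16.6 RPM with control siRNA. No Cebpb siRNA library reached any control library, with 83 to 426 reads behind each value. The log2 fold change was -0.82 ± 0.11 with isoproterenol (limma, adjusted p = 1.16e-06) and -0.68 ± 0.11 without (1.65e-05), so that 0.565-fold and 0.626-fold of the control level was left. Polr1c ends within 1000 bases of the end of Xpo5 on the opposite strand and changed the other way, by 0.20 ± 0.08 and 0.26 ± 0.08.

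Dicer1, the cytoplasmic RNase III enzyme (chr12:104687742-104751952, minus strand), fell by less. Its libraries held 29.8, 28.1, 33.1 and 31.8 RPM with Cebpb siRNA and isoproterenol, against 38.1, 40.6, 37 and 42.0 RPM with control siRNA and isoproterenol. In cells without isoproterenol the values were 32.2, 27.7, 29.8 and 25.3 RPM with Cebpb siRNA, against 39.0, 41.8, 40.4 and 33.3 RPM with control siRNA. The RPM values did not overlap in either setting, although after scaling the unstimulated groups did. The fitted log2 fold change was -0.30 ± 0.09 (limma, adjusted p = 0.00638) with isoproterenol and -0.34 ± 0.09 (0.00213) without; in experiment 2 alone the same values were -0.21 (adjusted p = 0.193) and -0.30 (0.0747), neither past the threshold. Tarbp2, which encodes the Dicer partner TRBP, stood near the floor, with 1.24, 1.27, 1.5 and 0 RPM with Cebpb siRNA and isoproterenol, 0, 1.41, 2.08 and 2.51 RPM in its controls, 1.41, 0, 1.11 and 2.23 RPM with Cebpb siRNA alone and 2.05, 1.05, 1.99 and 1.56 RPM with control siRNA alone. With at most 47 reads in a library, its 95% intervals of the log2 fold change, -0.85 to 0.14 and -0.62 to 0.37, hold changes of either sign, and no difference was detectable at this depth.

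The 3 Argonaute genes had small changes, each past the threshold in only 1 of the 2 settings. Ago2 encodes the Argonaute that can cut a fully matched target, as an siRNA's target is. With isoproterenol Ago2 had 171, 164, 146 and 161 RPM with Cebpb siRNA, against 194, 189, 163 and 158 RPM with control siRNA, and without it 150, 156, 151 and 144 RPM with Cebpb siRNA, against 195, 194, 161 and 166 RPM with control siRNA. The control libraries of experiment 1 stood highest in both settings. The stimulated groups overlapped, and the unstimulated groups were apart as deposited but not after scaling. Its log2 fold change was -0.07 ± 0.06 with isoproterenol (limma, adjusted p = 0.375, 95% interval -0.19 to 0.06) and -0.16 ± 0.06 without (0.0265, interval -0.29 to -0.04). The unstimulated call was lost without any 1 of the 4 libraries of experiment 1: without control siRNA replicate 1 the value was -0.15 (adjusted p = 0.0706), without replicate 2 it was -0.14 (0.0892), and without Cebpb siRNA replicate 1 or 2 it was -0.14 (0.0809) or -0.13 (0.106). In experiment 2 alone Ago2 gave 0.00 with isoproterenol and -0.03 without. Chrac1 overlaps the 3' end of Ago2 on the opposite strand and had log2 fold changes of -0.02 ± 0.07 and 0.07 ± 0.07.

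Ago1 had 28.6, 27.3, 25.0 and 20 RPM with Cebpb siRNA and isoproterenol, against 31.1, 32.3, 26.1 and 27.7 RPM with control siRNA and isoproterenol. Without stimulation Ago1 had 25.7, 27.0, 21.5 and 22.9 RPM with Cebpb siRNA, against 30.1, 31.8, 28.5 and 27.3 RPM with control siRNA, again apart as deposited and overlapping after scaling. Ago1 differed by -0.16 ± 0.08 with isoproterenol (limma, adjusted p = 0.072) and by -0.20 ± 0.08 without (0.0268). The second value passed the threshold, but not without control siRNA replicate 2 of experiment 1 (-0.19, adjusted p = 0.0618), control siRNA replicate 1 of experiment 2 (-0.17, 0.0794), Cebpb siRNA replicate 2 of experiment 1 (-0.19, 0.0598) or Cebpb siRNA replicate 1 of experiment 2 (-0.18, 0.0677). The first passed without either of 2 libraries with Cebpb siRNA and isoproterenol, replicate 1 of experiment 1 (-0.19, adjusted p = 0.0417) or replicate 1 of experiment 2 (-0.20, 0.0364).

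Ago3 had 15.0, 14.2, 14.1 and 15.4 RPM with Cebpb siRNA and isoproterenol, against 19.9, 20, 16.1 and 17.5 RPM with control siRNA and isoproterenol, with no overlap. Without stimulation Ago3 had 14.1, 14.9, 13.8 and 13.1 RPM with Cebpb siRNA, against 18.3, 20.5, 14.4 and 14.8 RPM with control siRNA, and the control libraries of experiment 2 came down to the Cebpb siRNA range. Its log2 fold change was -0.25 ± 0.09 with isoproterenol (limma, adjusted p = 0.023) and -0.18 ± 0.09 without (0.0959). The stimulated call was lost without control siRNA replicate 1 of experiment 1 (-0.23, adjusted p = 0.0631) and without either Cebpb siRNA library of experiment 1 (-0.24, 0.051, and -0.19, 0.0978). Averaging the siRNA effect over both settings, a contrast added after the values had been seen, called 8 of the 10 genes, 1 higher and 7 lower, against 71.6% of all genes (36.6% higher, 35.0% lower). In that average Ago1 differed by -0.18 ± 0.05 (limma, adjusted p = 0.00483), Ago2 by -0.12 ± 0.04 (0.0237) and Ago3 by -0.22 ± 0.07 (0.00552). The averaged Ago2 call was lost without any 1 of 6 libraries, with adjusted p between 0.0511 and 0.0626: control siRNA replicate 2 and both Cebpb siRNA libraries of experiment 1, and, with isoproterenol, control siRNA replicate 1 and Cebpb siRNA replicate 2 of experiment 1 and Cebpb siRNA replicate 1 of experiment 2.

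The GW182 genes did not move as a block. Tnrc6a (chr7:123123885-123195296, plus strand) had 150, 142, 161 and 135 RPM with Cebpb siRNA and isoproterenol, against 82.5, 86.3, 83.2 and 85.3 RPM with control siRNA and isoproterenol. Without isoproterenol, Tnrc6a had 139, 131, 151 and 146 RPM with Cebpb siRNA, against 87.6, 85.4, 84.5 and 92.3 RPM with control siRNA. All 8 Cebpb siRNA libraries stood above all 8 control libraries, with 1374 to 3806 reads behind each value. The log2 fold change was 0.86 ± 0.07 with isoproterenol (limma, adjusted p = 1.36e-10) and 0.78 ± 0.07 without (8.32e-10), which is 1.82-fold and 1.72-fold of control, and Tnrc6a was the only 1 of the 10 genes called higher. Tnrc6b, its close relative (chr15:80711313-80941085, plus strand), had 36.0, 33.9, 41.0 and 38.6 RPM with Cebpb siRNA and isoproterenol, against 40.5, 37.3, 33.4 and 36.0 RPM with control siRNA and isoproterenol. Without isoproterenol Tnrc6b had 30.3, 32.2, 34.5 and 38.5 RPM with Cebpb siRNA, against 40.6, 37.8, 36.3 and 34.4 RPM with control siRNA. Its groups overlapped, and its log2 fold changes of 0.09 ± 0.09 (limma, adjusted p = 0.414, 95% interval -0.10 to 0.28) and -0.05 ± 0.09 (0.625, interval -0.24 to 0.13) did not pass. Tnrc6c, the remaining GW182 gene, is named after its values were seen. It had 11.3, 10.2, 11.2 and 10.4 RPM with Cebpb siRNA and isoproterenol, against 16.4, 16.9, 15.7 and 13.9 RPM with control siRNA and isoproterenol, and without isoproterenol 8.14, 8.89, 9.85 and 10.6 RPM with Cebpb siRNA, against 16.8, 17.3, 17.0 and 14.3 RPM with control siRNA. Tnrc6c fell with no overlap, with log2 fold changes of -0.48 ± 0.11 (adjusted p = 0.000521) and -0.72 ± 0.11 (4.44e-06).

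**Figure D2:**
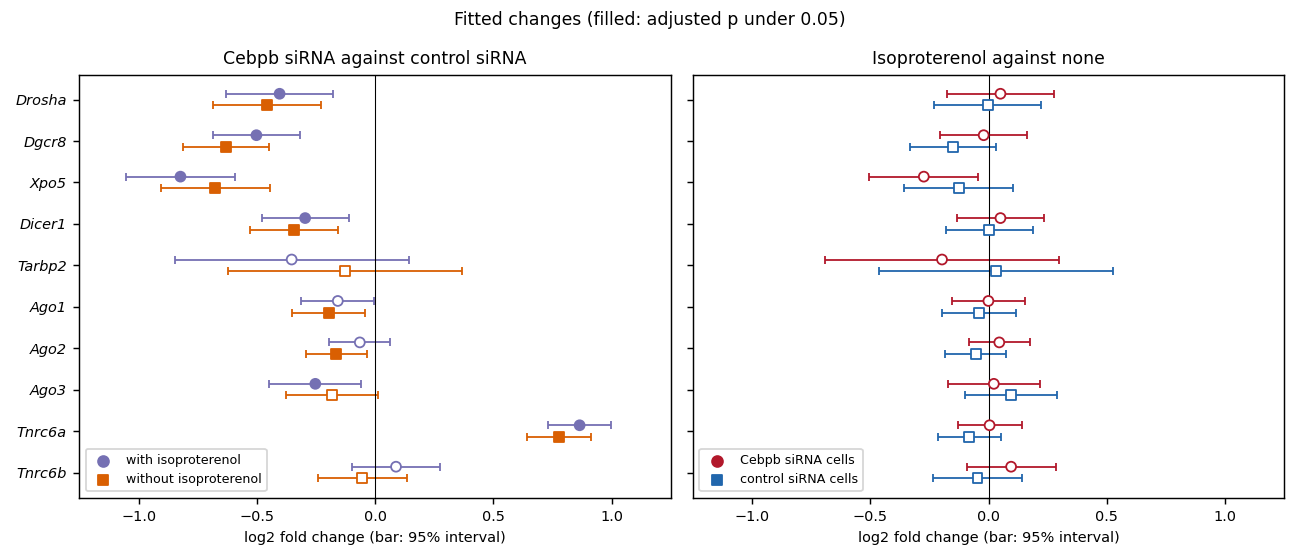
Fitted log2 fold changes with 95% intervals for each gene, Cebpb siRNA against control siRNA on the left (circles with, squares without isoproterenol) and isoproterenol against none on the right (circles in Cebpb siRNA cells, squares in control siRNA cells); filled symbols have an adjusted p under 0.05. On the left Tnrc6a lies at 0.86 and 0.78 while Xpo5 lies at -0.82 and -0.68, and on the right no symbol is filled.

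Ratios of 2 genes within a library do not depend on how libraries are scaled. They were compared between 4 and 4 libraries by an exact two-sided permutation test, added after the values had been seen; the smallest p this allows is 0.0286, and 8 such tests were adjusted together. The ratios with Tnrc6a were picked knowing its increase, which they restate without scaling. Permuting within each experiment allows 36 arrangements and no p below 0.0556; no ratio can then pass, and the adjusted p was 0.0635 for all but Dgcr8 over Drosha with isoproterenol (exact p = 0.5556). The log2 ratio of Tnrc6a to Tnrc6b averaged 1.97 ± 0.12 with Cebpb siRNA and 1.20 ± 0.12 with control siRNA in stimulated cells, and 2.07 ± 0.12 against 1.23 ± 0.14 in unstimulated cells (SD, n = 4 each), differences of 0.78 and 0.83 (exact p = 0.0286 each, adjusted 0.0458). The log2 ratio of Tnrc6a to Ago2, its binding partner, was -0.13 ± 0.19 with Cebpb siRNA against -1.06 ± 0.15 with control siRNA in stimulated cells and -0.09 ± 0.13 against -1.03 ± 0.17 in unstimulated cells, differences of 0.93 and 0.94 (exact p = 0.0286 each, adjusted 0.0458). For Xpo5 over Dicer1 the difference was -0.53 with isoproterenol (exact p = 0.0571, adjusted 0.0761) and -0.33 without (exact p = 0.0286, adjusted 0.0458). The Tnrc6a ratios, picked knowing its increase, lowered the adjusted p of the other ratios adjusted with them. The pass of Xpo5 over Dicer1 rests on that choice, so no conclusion is drawn from it. Dgcr8 over Drosha differed by -0.10 (exact p = 0.4857, adjusted 0.4857) and -0.17 (exact p = 0.0857, adjusted 0.0979), so an unequal decrease of the Microprocessor pair was not detectable with 4 libraries a group.

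**Figure D3:**
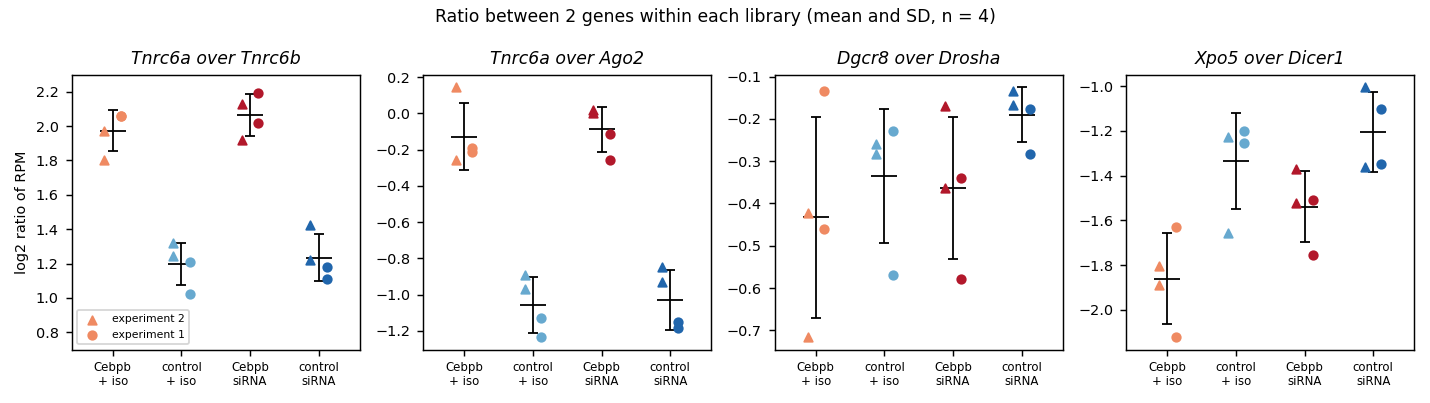
Log2 ratio of the RPM of 2 genes within each library, 1 panel a ratio, by group (iso, isoproterenol); triangles are experiment 2, circles experiment 1, and the bar and whiskers the mean and SD of 4 libraries, on axes that do not start at 0. Tnrc6a over Tnrc6b lies at 1.80 to 2.19 in the Cebpb siRNA libraries and at 1.03 to 1.43 in the control siRNA libraries, whereas Dgcr8 over Drosha overlaps between groups.

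Isoproterenol called none of the 10 genes by limma. Few of all genes tested were called either, so this count is near the background and is not a result about the 10 genes. In Cebpb siRNA cells 0 of 10 passed, against 5.48% of all genes (3.0% higher, 2.48% lower), with log2 fold changes from -0.27 to 0.10; 1 gene, Xpo5, had an unadjusted p under 0.05. Xpo5 averaged 8.49 ± 1.09 RPM with Cebpb siRNA and isoproterenol, against 9.90 ± 1.15 RPM with Cebpb siRNA alone (SD, n = 4 each), a log2 fold change of -0.27 ± 0.11 (unadjusted p = 0.0219, adjusted p = 0.17). In control siRNA cells 0 of 10 passed, against 1.65% of all genes (1.21% higher, 0.443% lower), with log2 fold changes from -0.15 (Dgcr8) to 0.09 (Ago3) and 0 genes with an unadjusted p under 0.05. Without scaling the share of higher calls among all genes called was 74.8% in Cebpb siRNA cells and 84.3% in control siRNA cells, and again 0 of the 10 passed. After scaling, the libraries did not overlap for Xpo5 in Cebpb siRNA cells (6.45% of all genes) and for Tnrc6a in control siRNA cells (5.63% of all genes), where Tnrc6a averaged 84.3 ± 1.77 RPM with isoproterenol and 87.5 ± 3.50 RPM without (log2 fold change -0.08 ± 0.07, limma, adjusted p = 0.73). For the 9 genes above the floor in all libraries the 95% intervals of the isoproterenol effects ran from -0.50 to 0.29. The siRNA effect itself did not differ detectably between stimulated and unstimulated cells: 0 of the 10 genes passed in the test of that difference, against 0.235% of all genes, and 0 had an unadjusted p under 0.05. The widest differences among the 9 well-measured genes were -0.15 ± 0.16 for Xpo5 (95% interval -0.47 to 0.18) and 0.14 ± 0.13 for Tnrc6b (-0.12 to 0.41).

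The 2 experiments gave unlike siRNA effects for Tnrc6b. In a test of that difference over all genes, added after the values had been seen, Tnrc6b was the 1 gene of the 10 to pass, against 0.814% of all genes. Its siRNA effect, averaged over both isoproterenol settings, was 0.22 in experiment 2 and -0.18 in experiment 1, a difference of 0.40 ± 0.09 (limma, adjusted p = 0.0478). Within each setting, where the difference was not tested, the effects were 0.27 in experiment 2 and -0.09 in experiment 1 with isoproterenol, and 0.17 and -0.28 without. Ago3 (-0.06 in experiment 2, -0.38 in experiment 1), Ago2 (-0.01 and -0.22) and Xpo5 (-0.59 and -0.91) also had smaller decreases in experiment 2, differences that did not pass (adjusted p = 0.231, 0.255 and 0.36). Tnrc6a (0.87 and 0.77) and Dgcr8 (-0.57 and -0.56) had like effects in both. As for levels, experiment 2 against experiment 1 called 5 of the 10 genes, against 32.9% of all genes: Ago1, Ago2 and Ago3 were lower (-0.24 ± 0.05, -0.17 ± 0.04 and -0.19 ± 0.07), Drosha and Dgcr8 higher (0.22 ± 0.08 and 0.26 ± 0.06).

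**Figure D4:**
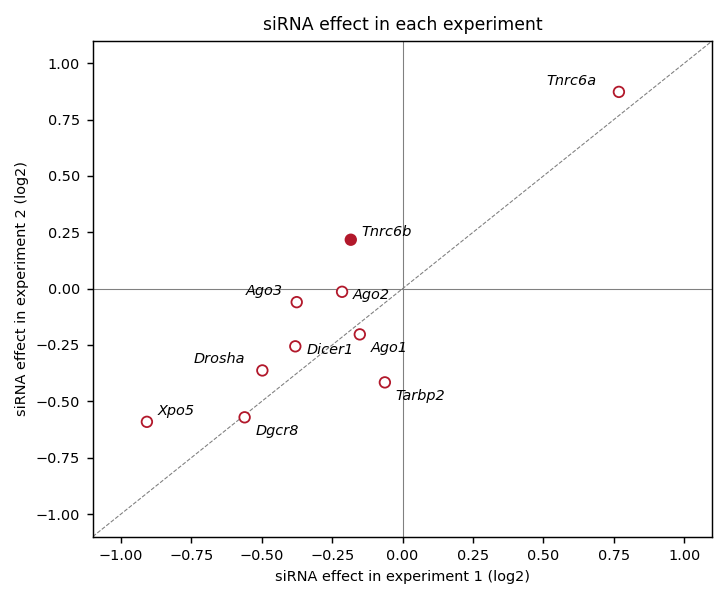
Log2 siRNA effect on each gene, averaged over both isoproterenol settings, in experiment 2 (vertical) and experiment 1 (horizontal); the dashed line marks equal effects and the filled symbol an adjusted p under 0.05 for the difference. Tnrc6b lies at 0.22 in experiment 2 and -0.18 in experiment 1, and Tnrc6a and Dgcr8 lie near the line.

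The remaining genes of the pathway were read from lists of 74 further names, of which 64 could be tested. With isoproterenol 21 were higher and 20 lower, and without it 22 were higher and 22 lower, again near the background of 62.0% and 61.3%; the median log2 fold changes were 0.03 and 0.00. Silencing effectors had 12 higher and 5 lower of 26 tested with isoproterenol (median 0.22) and 14 higher and 5 lower without (median 0.28). Partners in export, dicing and loading had 3 higher and 8 lower of 14 (median -0.33) and 2 higher and 8 lower (median -0.30). The background over all genes tested was 31.6% higher and 30.3% lower with isoproterenol, and 30.9% higher and 30.4% lower without.

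Among the silencing effectors, 2 subunits of CCR4-NOT had the largest decreases. Cnot6, a deadenylase subunit, averaged 38.2 ± 3.35 RPM with Cebpb siRNA and 181 ± 13.3 RPM with control siRNA in stimulated cells, and 40.5 ± 1.51 RPM with Cebpb siRNA against 181 ± 10.1 RPM with control siRNA in unstimulated cells (SD, n = 4 each), or 0.221-fold and 0.238-fold of control (limma, adjusted p = 1.07e-17 and 2.86e-17). Cnot11, a subunit without enzymatic activity, averaged 6.06 ± 0.879 RPM with Cebpb siRNA against 26.5 ± 0.874 RPM with control siRNA in stimulated cells and 6.23 ± 1.08 against 26.5 ± 1.28 RPM in unstimulated cells, or 0.237-fold and 0.246-fold (adjusted p = 3.31e-13 and 5.88e-13). These decreases were larger in fold than that of Cebpb itself, 0.302-fold and 0.302-fold, though the difference between the genes was not tested. Limd1, an Argonaute-binding LIM protein, fell by 0.65 ± 0.06 and by 0.67 ± 0.06 (log2, limma, adjusted p = 5.07e-09 and 2.85e-09). Mov10, an RNA helicase that travels with Argonaute, rose by 1.08 ± 0.14 with isoproterenol and 0.47 ± 0.14 without (adjusted p = 3.92e-07 and 0.00496), and the test of the difference between these effects, 0.61 ± 0.19, did not pass (adjusted p = 0.339).

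Of the Microprocessor partners, 3 were higher and 5 lower of 12 with isoproterenol, and 4 higher and 6 lower without. Over all genes tested, 31.6% were called higher and 30.3% lower with isoproterenol, and 30.9% and 30.4% without. Ncbp1, the large cap-binding subunit, fell to 34.1 ± 0.541 RPM with Cebpb siRNA and isoproterenol, against 61.7 ± 4.07 RPM in controls (log2 fold change -0.79 ± 0.07, limma, adjusted p = 2.09e-09), and without isoproterenol changed by -0.69 ± 0.07 (2e-08). Srsf3, a splicing factor that reads a motif beside many hairpins, fell (-0.61 ± 0.06 and -0.53 ± 0.06), and the helicase gene Ddx17 rose (0.55 ± 0.08 and 0.58 ± 0.08). Khsrp, an RNA-binding protein of both nuclear and cytoplasmic processing, was the 1 of the 64 genes called under isoproterenol in control siRNA cells (background 1.65%). It averaged 118 ± 11.5 RPM with isoproterenol and 135 ± 9.38 RPM without (log2 fold change -0.23 ± 0.06, adjusted p = 0.0482). In Cebpb siRNA cells 3 of the 64 were called, all lower, near the background of 5.48%, so that neither count is a result about the pathway: Khsrp (-0.22 ± 0.06, adjusted p = 0.0293), Srsf3 (-0.30 ± 0.06, 0.00285) and Eri1 (-0.20 ± 0.06, 0.0411).

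In the export, dicing and loading list, Fkbp4, a co-chaperone of the HSP90 system that loads Argonaute, fell to 143 ± 12 RPM with Cebpb siRNA against 292 ± 21.5 RPM with control siRNA in stimulated cells, and to 155 ± 8.55 RPM against 313 ± 27.6 RPM in unstimulated cells (log2 fold change -0.96 ± 0.06 and -0.93 ± 0.06, limma, adjusted p = 1e-11 and 1.96e-11). Dhx9, an RNA helicase, fell by 0.55 ± 0.06 and 0.54 ± 0.06. Adar, which edits double-stranded RNA, rose by 0.72 ± 0.09 and 0.61 ± 0.09. In the list of small RNA tailing and turnover, 3 were higher and 2 lower of 10 with isoproterenol, and 2 higher and 3 lower without. The shares over all genes tested were 31.6% higher and 30.3% lower with isoproterenol, and 30.9% and 30.4% without. Zcchc6, which adds uridines to small RNA ends, rose to 82.7 ± 6.52 RPM with Cebpb siRNA against 42.5 ± 3.42 RPM with control siRNA in stimulated cells, and to 72.2 ± 3.09 RPM against 39.9 ± 2.75 RPM in unstimulated cells (log2 fold change 1.03 ± 0.06 and 0.94 ± 0.06, adjusted p = 2.36e-12 and 1.06e-11). Zswim8, part of the ligase that removes target-bound Argonaute, rose by 0.76 ± 0.11 and 0.69 ± 0.11, the exonuclease gene Eri1 fell by 0.53 ± 0.06 and 0.39 ± 0.06, and Pnpt1 did not pass (-0.05 ± 0.10 and 0.11 ± 0.10). Of the other Argonaute and PIWI genes, Ago4 (0.36 ± 0.19 and 0.26 ± 0.19) and Piwil2 (-0.45 ± 0.20 and -0.02 ± 0.20) were tested near the floor, and neither passed.

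**Figure D5:**
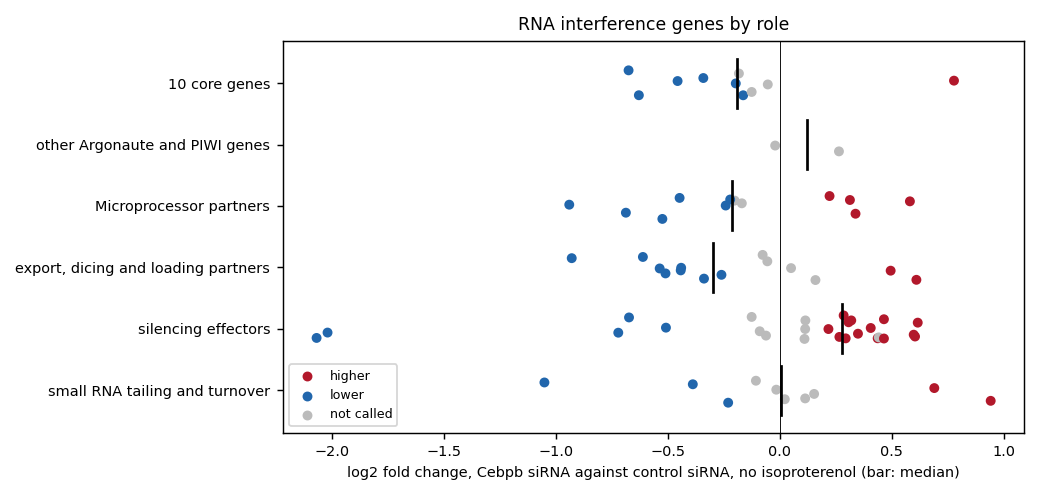
Log2 fold change of Cebpb siRNA against control siRNA without isoproterenol for the 10 core genes and 5 lists of further pathway genes; each point is a tested gene, coloured by its call, and the black bar is the median of its list. Cnot6 and Cnot11 lie at about -2.07 and -2.02 among silencing effectors whose median is 0.28, and the 10 core genes have a median of -0.19.

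Over the 16 libraries, with each experiment's mean removed, the 2 genes most like Tnrc6a were Trp53bp1 and Mkrn1 (Pearson r = 0.99 each). Those most like Xpo5 were Jpt1 and Fastkd2 (0.983 each), those most like Dgcr8 were Brca2 (0.975) and Tpx2 (0.972), and those most like Drosha were Snrpg (0.965) and Cep162 (0.953). These values describe likeness only: the libraries fall into Cebpb siRNA and control siRNA sets, and any 2 genes with a large siRNA effect share that split. Tnrc6b, with little siRNA effect over both experiments together, had Dhx16 (0.892) and Pcgf1 (0.788) as its nearest. The nearest to Ago1 was Gmps (0.93), to Ago2 Spata24 (0.892), to Ago3 Slc22a15 (0.937), to Dicer1 Rexo4 (0.931) and to Tarbp2 Tmem258 (0.842).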

How the data were processed

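RNA of 16 cultures was sequenced with a 3' tag protocol (QuantSeq 3' FWD); replicates of a group are separate libraries that the design text describes as biological, and p-values measure only their spread. Per the submitters' processing notes, alignment used STAR 2.5.3a and the build was GRCm38; neither the counter nor its annotation or strand setting was stated in the sources used here. The deposited values are log2 of RPM, with reads of all kinds in the total and genes at or below 1 RPM listed as 0, as tested on the files: below 1000 RPM, 100% of values came within 0.1 of a whole read. Entries naming no gene took part only in the total: 5.07 to 7.61% of reads were unmapped, 19.44 to 22.3% mapped to several places, 7.51 to 9.39% fell in no gene and 0.82 to 1.02% were ambiguous, leaving 5.81 to 15.9 M gene reads a library.

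Log2 values were scaled between libraries by an unweighted trimmed mean of log ratios to a reference library, over genes above the floor in both. The trims were 30% on ratio and 5% on level, and the factors ran from -0.10 to 0.08. The values were then set to a common floor and fitted with limma 3.58.1 (trend, robust, R 4.3.3) with 4 groups and experiment as terms. The 11060 genes above the floor in at least 4 libraries were tested, with Benjamini-Hochberg adjustment over all of them and a threshold of 0.05. Fold changes near the floor are understated. The fit was run on simulated data with few changed genes and no experiment effect. That run does not cover data such as these, in which most tested genes were called for the siRNA. Ratios used scipy 1.17.1. Replicate numbers were not treated as pairs in the main fit (r of deviations -0.19 to 0.23 over 12 pairs, 3 of them over 0.1). With 2 replicates of a group in each experiment these r values are not independent and cannot exclude a pairing. The 10 genes and the pathway lists were chosen with earlier results of these data known. Named further genes are, per list, the 3 with the smallest adjusted p in the siRNA comparison without isoproterenol and the 1 with the smallest in the isoproterenol comparison in control siRNA cells, and per core gene the 2 most alike. Promoters and microRNAs come from RefSeq (GRCm38.p6), gene positions and overlaps from GENCODE M21. A 3' UTR search is not reported here.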

Additional observations from a re-analysis of the deposited data

Results flagged for a closer look

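With Cebpb siRNA and isoproterenol, the lowest Xpo5 library (experiment 1, replicate 1) had 6.86 RPM, far from the other 3 at 8.93 to 9.10 RPM; 40 sets of 4 libraries were checked in this way, and chance singles out about 1 in 20. Without it, the Xpo5 log2 fold change of Cebpb siRNA against control siRNA with isoproterenol was -0.72 (limma, adjusted p = 6.37e-06), and that of isoproterenol in Cebpb siRNA cells was -0.17 (adjusted p = 0.389). The Tnrc6b siRNA effect in experiment 2 minus that in experiment 1 was 0.40 on the log2 scale. This difference is listed because it passed the test added after the values had been seen (limma, adjusted p = 0.0478). The share of unmapped reads, outside the gene measurements, averaged 6.63% with Cebpb siRNA and isoproterenol, against 5.4% in its controls, and 6.96% with Cebpb siRNA alone, against 5.45% in its controls, with no overlap between libraries.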

How the results depend on the processing

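Dgcr8, Xpo5 and Tnrc6a kept their direction and call in both siRNA comparisons under all 27 settings tried. Without scaling, 7 rather than 6 of the 10 genes were called with isoproterenol and 8 rather than 7 without. Over all 11141 genes then tested, 6737 and 6643 were called. Without the experiment term 5 were called in each, and 6 rather than 8 in the average. Over all 11060 genes, that setting called 6055 with isoproterenol, 5916 without and 7353 in the average. The main fit called 6854, 6781 and 7918. With experiment 2 alone the counts were 3 with isoproterenol and 4 without (6 and 7 with both experiments). The calls over all genes fell as well, to 5095 and 4832. Leaving out 1 library at a time gave 5 to 7 in both, beside 6399 to 7105 and 6328 to 6870 calls over all genes. In the averaged siRNA effect Tnrc6b was called lower with experiment 1 alone (-0.18) and higher with experiment 2 alone (0.22). With both experiments together its value was 0.02 and was not called. Experiment 1 alone also called Tnrc6b lower without isoproterenol (-0.28). The cause of these changes was not tested. Values as deposited moved the split of calls over all genes: 2976 higher and 3761 lower with isoproterenol (3500 and 3354 after scaling), 2726 and 3917 without (3414 and 3367), and, in Cebpb siRNA cells, 455 and 153 for isoproterenol (332 and 274).

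For isoproterenol in Cebpb siRNA cells, 606 genes became 197 without the experiment term, 249 with only the groups compared, 243 with experiment 1 alone and 145 with experiment 2 alone. In control siRNA cells, 183 became 44, 417, 111 and 21 under the same settings, 116 without trend, and 100 to 263 with 1 library left out (100 without control siRNA experiment 1 replicate 1, 113 without experiment 2 replicate 2, and, with isoproterenol, 117, 115 and 111 without control siRNA experiment 1 replicate 2 and experiment 2 replicates 1 and 2). For the difference of siRNA effects, 26 became 12 with genes above the floor in all libraries, 17 with a pseudocount of 1 RPM, 10 without the experiment term, and 12 and 2 with experiment 1 or 2 alone; leaving out 1 library gave 18 to 28. None of the 10 genes was called in these 3 comparisons under any setting, and few of all genes were. With a replicate block the 10 genes gave 6 calls with isoproterenol and 7 without, and all genes gave 6770, 6702, 549, 152 and 27 calls in the 5 comparisons (siRNA with and without isoproterenol, isoproterenol with Cebpb and with control siRNA, and the difference). Depth limits Tarbp2, at or near the floor in every library.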
